A study of Mus musculus with 60 samples.

Results

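The genes described here are 40 presynaptic genes whose products carry synaptic vesicle docking, priming, fusion and recycling. They were chosen by function, but with earlier results of these data known, so the shares of them called below do not come from a blind choice. The gene identifiers of the deposited table were matched to their symbols through GENCODE release M21. All 40 were found among 18088 genes, and 40 of 40 passed the filter on low values. RNA was sequenced from the prefrontal cortex of C57BL/6J mice of both sexes on postnatal day 25. Wild-type (WT) mice were compared with mice carrying 1 copy of Grin2b C456Y (heterozygous, Het), an allele of a gene for an NMDA-type glutamate receptor subunit. Pups had received vehicle, fluoxetine (a serotonin reuptake inhibitor) or lithium (a mood stabiliser) by way of the mother's milk from postnatal day 3 to 24. The 6 groups were WT vehicle, WT fluoxetine, WT lithium, Het vehicle, Het fluoxetine and Het lithium, each with 10 libraries, 5 female and 5 male. The labels do not say that the replicates are separate animals or litters, so p-values measure only the spread between these samples, which may be technical.

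Synaptic vesicles are filled with transmitter, tethered at the active zone by a protein scaffold, primed, and fused when calcium binds synaptotagmin and the SNARE proteins zip together. The RIM proteins lie at the centre of the active zone, where they bind Rab3 on the vesicle, the Munc13 priming factors and calcium channels. Bassoon and piccolo are giant proteins of the same scaffold, and the ATPase NSF takes used SNARE complexes apart so that they can serve again.

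Promoter sequences are shown for 3 genes that moved under lithium in WT mice: Rims1, which fell, and Unc13b and Bsn, which rose. They come from RefSeq on build GRCm38.p6, whose table held a window of 300 bases (250 before the start and 50 after it) for 32 of the 40 genes. The Rims1 window is chr1:22806109-22806408 on the minus strand, that of Unc13b chr4:43058703-43059002 on the plus strand, and that of Bsn chr9:108190334-108190633 on the minus strand. The Unc13b and Bsn windows overlap the annotated start of the gene, whereas RefSeq's start for Rims1 lies upstream of the GENCODE gene, so that window lies wholly outside the span GENCODE gives the gene. The sequences are written 5′ to 3′ along the gene, and capitals mark the GC box (GGGCGG, on either strand).

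Rims1: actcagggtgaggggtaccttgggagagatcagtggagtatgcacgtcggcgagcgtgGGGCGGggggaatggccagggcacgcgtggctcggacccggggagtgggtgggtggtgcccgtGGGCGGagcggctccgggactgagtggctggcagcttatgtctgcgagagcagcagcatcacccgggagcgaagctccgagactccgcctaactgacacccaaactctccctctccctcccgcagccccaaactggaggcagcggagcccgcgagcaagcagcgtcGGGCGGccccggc
Unc13b: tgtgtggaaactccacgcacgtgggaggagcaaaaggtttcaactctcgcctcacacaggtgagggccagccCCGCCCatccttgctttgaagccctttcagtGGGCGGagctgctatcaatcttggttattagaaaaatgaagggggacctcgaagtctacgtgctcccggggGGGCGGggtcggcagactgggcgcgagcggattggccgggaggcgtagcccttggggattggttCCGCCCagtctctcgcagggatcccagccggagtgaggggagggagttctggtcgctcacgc
Bsn: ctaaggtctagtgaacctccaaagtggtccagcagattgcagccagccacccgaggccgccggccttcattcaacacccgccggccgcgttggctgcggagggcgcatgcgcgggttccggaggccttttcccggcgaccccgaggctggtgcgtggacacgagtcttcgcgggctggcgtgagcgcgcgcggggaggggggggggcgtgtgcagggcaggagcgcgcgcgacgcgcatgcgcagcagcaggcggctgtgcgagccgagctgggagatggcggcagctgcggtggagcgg

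The Rims1 window held 3 GC boxes, the Unc13b window 4 and the Bsn window 0. A GC box was present in 25 of the 32 windows (78.1%), against 35.9% of the windows of all 27025 genes listed. Members were taken at the window nearest the GENCODE start. All genes, expressed here or not, were taken at the first window listed, so the sides were chosen by unlike rules. The median GC content was 62.2% for the members' windows and 52.7% for those of all genes. The Tcf/Lef letters CTTTGAT, searched on both strands, were in 0 of the 32 windows and in 3.72% of all. TATAAA, searched in the same way, was in 1 of the 32, that of Sv2b, and in 14.2% of all. A match of letters is a description and not a binding site.

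Levels are compared between genes as normalised read counts (read counts divided by the library's size factor) per kb of the longest annotated transcript, in WT vehicle libraries. Which transcript was expressed was not determined, so the order of the genes depends on this choice of length. The highest was Slc17a7, the vesicular glutamate transporter of cortical excitatory neurons, at 16283 ± 1944 per kb (mean ± SD, n = 10), and the lowest was Syn3, a synapsin, at 65.5 ± 9.23 per kb. The vesicle protein gene Syp (14673 ± 1458 per kb) and the SNARE genes Vamp2 (14315 ± 945 per kb) and Snap25 (11956 ± 1031 per kb) came next, with ranges that overlapped from one to the next. Syt1, the fast calcium sensor, stood at 9565 ± 553 per kb, and its range lay above that of Cplx1, a SNARE regulator, at 7583 ± 518 per kb. The active zone scaffold was lower. Rims1 was at 1477 ± 138 per kb, Bsn at 1145 ± 127, Rims4 at 916 ± 64.3, Erc2 at 880 ± 51.9, Rims2 at 685 ± 39.8, Rims3 at 569 ± 62 and Pclo at 449 ± 48.1 per kb. At the low end were the priming factor Unc13b (154 ± 10.7 per kb), the glutamate transporter Slc17a6 (152 ± 23.5), the vesicle protein gene Sv2c (142 ± 28.3), the calcium sensor Syt2 (94.7 ± 20.1) and the priming factor Unc13c (87.5 ± 6.29 per kb). Going down this order, the ranges of neighbouring genes overlapped except below Syt1, Sv2a, Erc2, Lin7a, Erc1 and Unc13c.

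**Figure D1:**
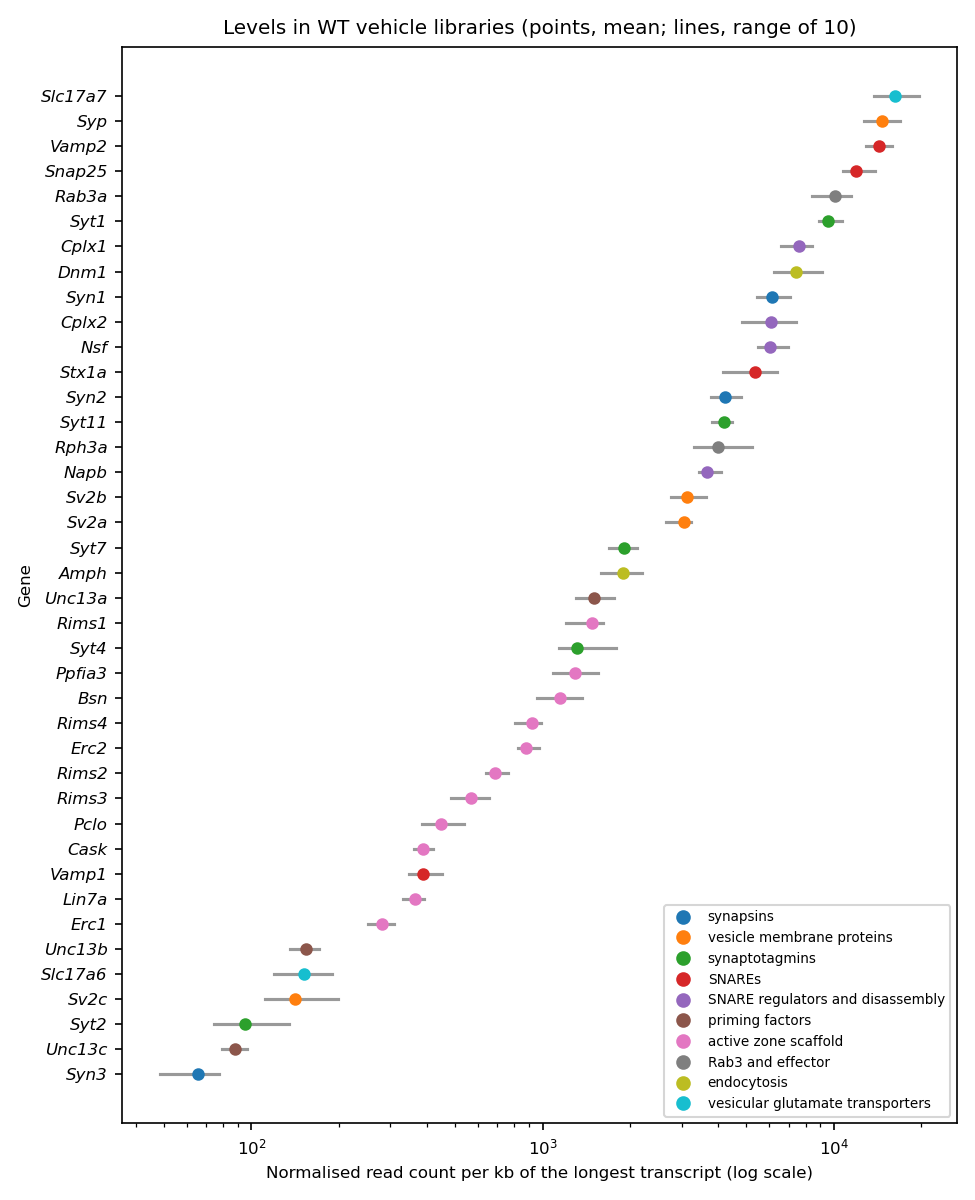
Normalised read count per kb of transcript (log axis) for the 40 genes in WT vehicle libraries, coloured by role; points are means and lines the range of 10 libraries. Slc17a7, Syp and Vamp2 are the highest and Unc13c (87.5 per kb) and Syn3 (65.5 per kb) the lowest.

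Over all 60 libraries the coefficient of variation was widest for Syt2 (23.7%), Slc17a6 (23.5%), Sv2c (19.8%) and Rims1 (17.8%). It was narrowest for Syt11 (5.57%) and Vamp2 (6.07%). The first 3 of the wide genes are among the lowest in level, and Rims1 is not. The 40 genes together made up 1.79% to 2.34% of a library, with ranges that overlapped between all 6 groups.

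Depth was 23901635 to 37769417 reads per library, recovered from the deposited values. The cortical excitatory marker Neurod6 ranged from 1190 to 3667 normalised reads, and markers of neighbouring regions varied more, the striatal Drd2 from 18.3 to 605 and the olfactory bulb gene Eomes from 1.18 to 1080. In 10 libraries a group of 16 pseudogenes was low, with a mean log2 level of 1.78 to 3.15, against 4.60 to 7.14 in the other 50. These were 9 of the 10 Het fluoxetine libraries (all but male replicate 1) and WT vehicle female replicate 2. The pseudogenes were chosen for large called differences between Het and WT mice under fluoxetine. The libraries were then split at the widest gap in the mean of these pseudogenes. That the low set falls mostly on Het fluoxetine libraries therefore follows largely from this choice. Results were also computed with a term for this library set, with each library's trend with transcript GC content removed (the GC correction), and without the 3 libraries with the largest residuals (Het vehicle male 5 and the fifth library of each sex in WT lithium).

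Under lithium Rims1 was lower than under vehicle in both genotypes, and in WT mice further genes of the scaffold, the priming step and the vesicle changed. In WT mice 14 of the 40 genes passed an adjusted p of 0.05 in limma, 9 higher and 5 lower (35%), beside 19.2% of the 17810 genes tested (9.34% higher, 9.87% lower). The median log2 fold of the 40 was 0.06, and that of all genes 0.00. In Het mice 1 of the 40 passed, Rims1, beside 0.983% of all genes. At an unadjusted p below 0.05 in limma there were 11 of the 40 in Het mice (27.5%), beside 13.8% of all genes. No gene of the 40 passed the test of the difference between the WT and Het responses, beside 0.0674% of all genes; edgeR also called 0, and 1 gene had an unadjusted p below 0.05. The lithium responses of the 2 genotypes are therefore not shown to differ for any of the 40.

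Rims1, on chromosome 1 at 22286251 to 22805994 (GRCm38, minus strand), encodes RIM1, a large RIM with binding sites for Rab3 and Munc13. Its normalised read counts ran from 7783 to 10424 with a median of 9744 in WT vehicle libraries, and from 4129 to 8448 with a median of 7303 in WT lithium libraries. All 10 lithium libraries lay below the vehicle mean of their sex. In males the ranges did not overlap (6482 to 7863 under lithium, 8242 to 10424 under vehicle), and in females they did. The mean was 9518 ± 893 under vehicle and 6915 ± 1308 under lithium (SD, n = 10 each), a log2 fold of -0.48 (SE 0.0851, 95% interval -0.65 to -0.31, limma adjusted p = 8.36e-05). The call held in 20 of 20 fits with 1 library left out, where the fold ran from -0.54 to -0.41, and in every other alternative that was run.

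In Het mice Rims1 ran from 7332 to 10731 (median 9511) in vehicle and from 6056 to 8250 (median 7095) in lithium libraries. Here it was the female ranges that did not overlap (6056 to 7812 under lithium, 8199 to 10731 under vehicle). All 10 lithium libraries again lay below the vehicle mean of their sex. The mean was 9398 ± 1064 under vehicle and 7248 ± 692 under lithium, a log2 fold of -0.37 (SE 0.0851, limma adjusted p = 0.0198). The call was kept in 18 of 20 fits and lost without Het lithium female replicate 3 (-0.35, adjusted p = 0.0526) or Het vehicle female replicate 3 (-0.35, adjusted p = 0.0505). The Het response minus the WT response was 0.11 on the log2 scale, with an interval of -0.13 to 0.35 (adjusted p = 0.793). Under fluoxetine the log2 folds of Rims1 were -0.02 in WT (interval -0.19 to 0.15) and 0.06 in Het mice (interval -0.12 to 0.23), neither called.

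**Figure D2:**
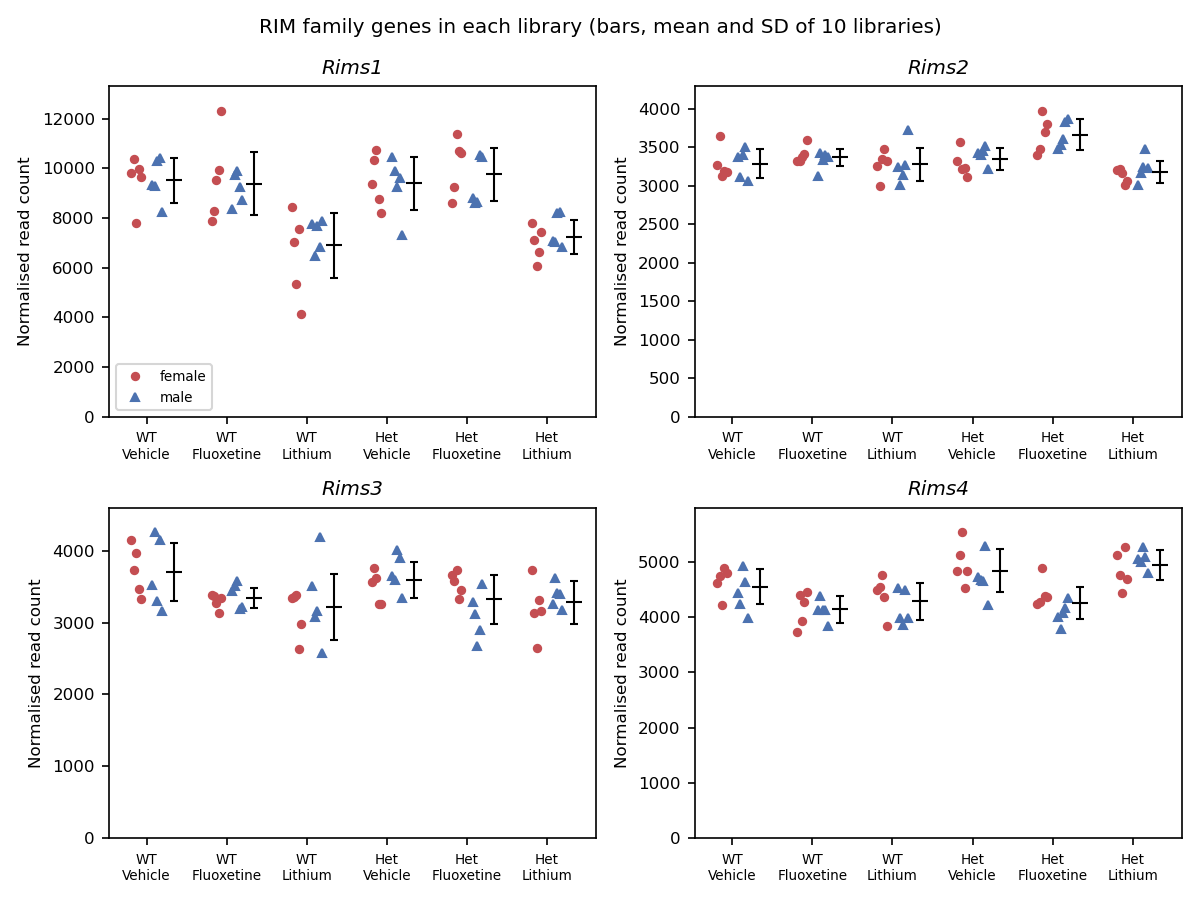
Normalised read count (vertical axis) of the 4 RIM genes in each library of the 6 groups (horizontal axis); circles are female, triangles male, and bars the mean and SD of 10 libraries. Rims1 has its lowest means in WT lithium (6915) and Het lithium (7248), and Rims4 has its highest mean in Het lithium (4945).

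Among the other RIM genes, Rims3, which encodes a short RIM, fell in WT lithium. It ran from 3156 to 4259 in vehicle and from 2583 to 4185 in lithium libraries, a log2 fold of -0.21 (SE 0.0612, adjusted p = 0.0132, 20 of 20 fits). It was not called after the GC correction (-0.15, adjusted p = 0.0616), without the 3 libraries with the largest residuals (adjusted p = 0.0732) or with only the compared groups fitted (adjusted p = 0.104). In Het lithium its log2 fold was -0.13 (adjusted p = 0.319). Rims2, the other large RIM, had log2 folds of 0.00 in WT and -0.07 in Het mice, and the short RIM gene Rims4 had -0.09 and 0.03; none of these was called.

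Among the priming factors, Unc13b, which encodes Munc13-2, rose in WT lithium. It ran from 1997 to 2527 (median 2295) in vehicle and from 2291 to 2928 (median 2580) in lithium libraries. All 10 lithium libraries lay above the vehicle mean of their sex, and the ranges overlapped. The log2 fold was 0.21 (SE 0.0389, adjusted p = 0.00016), and the call held in 20 of 20 fits and in every other alternative that was run. In Het mice the fold was 0.06 (adjusted p = 0.522), and the Het response minus the WT response was -0.15 (interval -0.26 to -0.04, adjusted p = 0.285). Unc13c fell by 0.20 (adjusted p = 0.0335, 12 of 20 fits). Unc13a, which encodes Munc13-1, was at 0.06 (interval -0.05 to 0.16) and not called.

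In the rest of the scaffold, the bassoon gene Bsn, the piccolo gene Pclo and the ELKS-family gene Erc2 rose in WT lithium. Bsn ran from 15231 to 21700 (median 18278) in vehicle and from 16167 to 28782 (median 22687) in lithium libraries, and the female ranges did not overlap. Its log2 fold was 0.30 (SE 0.0775, adjusted p = 0.00503). Pclo rose by 0.21 (SE 0.0628, adjusted p = 0.0153) and Erc2 by 0.17 (SE 0.0429, adjusted p = 0.00341). These 3 kept their calls in 20 of 20 fits, with the library term and after the GC correction. With only the compared groups fitted, Pclo (adjusted p = 0.105) and Erc2 (adjusted p = 0.0577) were not called. Ppfia3, a liprin-alpha gene, fell by 0.19 (adjusted p = 0.0288, 14 of 20 fits), with -0.00401 in females and -0.37 in males. In Het lithium the log2 folds were 0.13 for Bsn, 0.11 for Pclo and 0.09 for Erc2, none called.

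Among the vesicle proteins Syn3 (0.26, SE 0.0739, adjusted p = 0.00955), Sv2a (0.19, SE 0.0446, adjusted p = 0.00209) and Sv2b (0.17, adjusted p = 0.0438) rose in WT lithium. Sv2a, whose product binds the antiepileptic levetiracetam, ran from 11470 to 13983 in vehicle and from 12640 to 17434 in lithium libraries, and its female ranges did not overlap. Syn3 and Sv2a kept their calls in 20 of 20 fits, and Sv2b in 9. Syn3 shares 1733 exon bases with Timp3 on the opposite strand, so its level is uncertain, and Timp3 was at -0.09 in the same comparison (adjusted p = 0.393). Syt7, a calcium sensor of slow release, rose by 0.11 (adjusted p = 0.0462, 5 of 20 fits). The complexin gene Cplx1 rose by 0.12 (adjusted p = 0.0486, 9 of 20 fits), with 0.25 in females and -0.01 in males. Vamp2, the vesicle SNARE, fell by 0.10 (adjusted p = 0.0482, 8 of 20 fits). Syp, Syt1, Snap25, Rab3a, Dnm1 and both glutamate transporters were among the 26 genes not called.

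The count of 14 in WT lithium was 8 without WT vehicle female replicate 4, 9 without WT vehicle male replicate 1, 9 without the 3 libraries with the largest residuals and 5 with only the compared groups fitted. After the GC correction 8 were called higher and 2 lower, all 10 among the 14, beside 19.3% of all genes. With the library term 9 were called higher and 5 lower, 11 of these among the 14, beside 22.7% of all genes. Markers of other cell types moved in the same comparison. Of the microglial markers 6 of 7 were called lower, of the endothelial 5 of 6, of the meningeal fibroblast 5 of 6 and of the astrocyte markers 4 of 7. Of all genes 9.87% were called lower. Summed microglial markers ran from 8796 to 10483 normalised reads in WT vehicle and from 6112 to 9139 in WT lithium libraries, and summed endothelial markers from 5855 to 7523 and from 4271 to 6180. Of the neuronal markers 1 of 12 was called lower, and their sums ran from 134491 to 161290 and from 136126 to 153326. Summed excitatory cortical neuron markers had medians of 149701 in WT vehicle and 126193 in WT lithium libraries, with ranges that overlapped. The medians were 155407 and 114827 for oligodendrocyte markers and 7202 and 5651 for their precursors. For inhibitory neuron markers they were 24221 and 25576. In Het lithium 0 of 7 microglial and 1 of 6 endothelial markers were called lower, where 0.983% of all genes were called. The median of the summed microglial markers was 8546 in Het lithium and 9303 in Het vehicle libraries. For the endothelial markers it was 5733 and 6476. No marker of these lists was at 0 in any library. The part of these markers in the other results was not tested, and in whole tissue fewer cells of a type and less RNA per cell cannot be told apart.

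**Figure D3:**
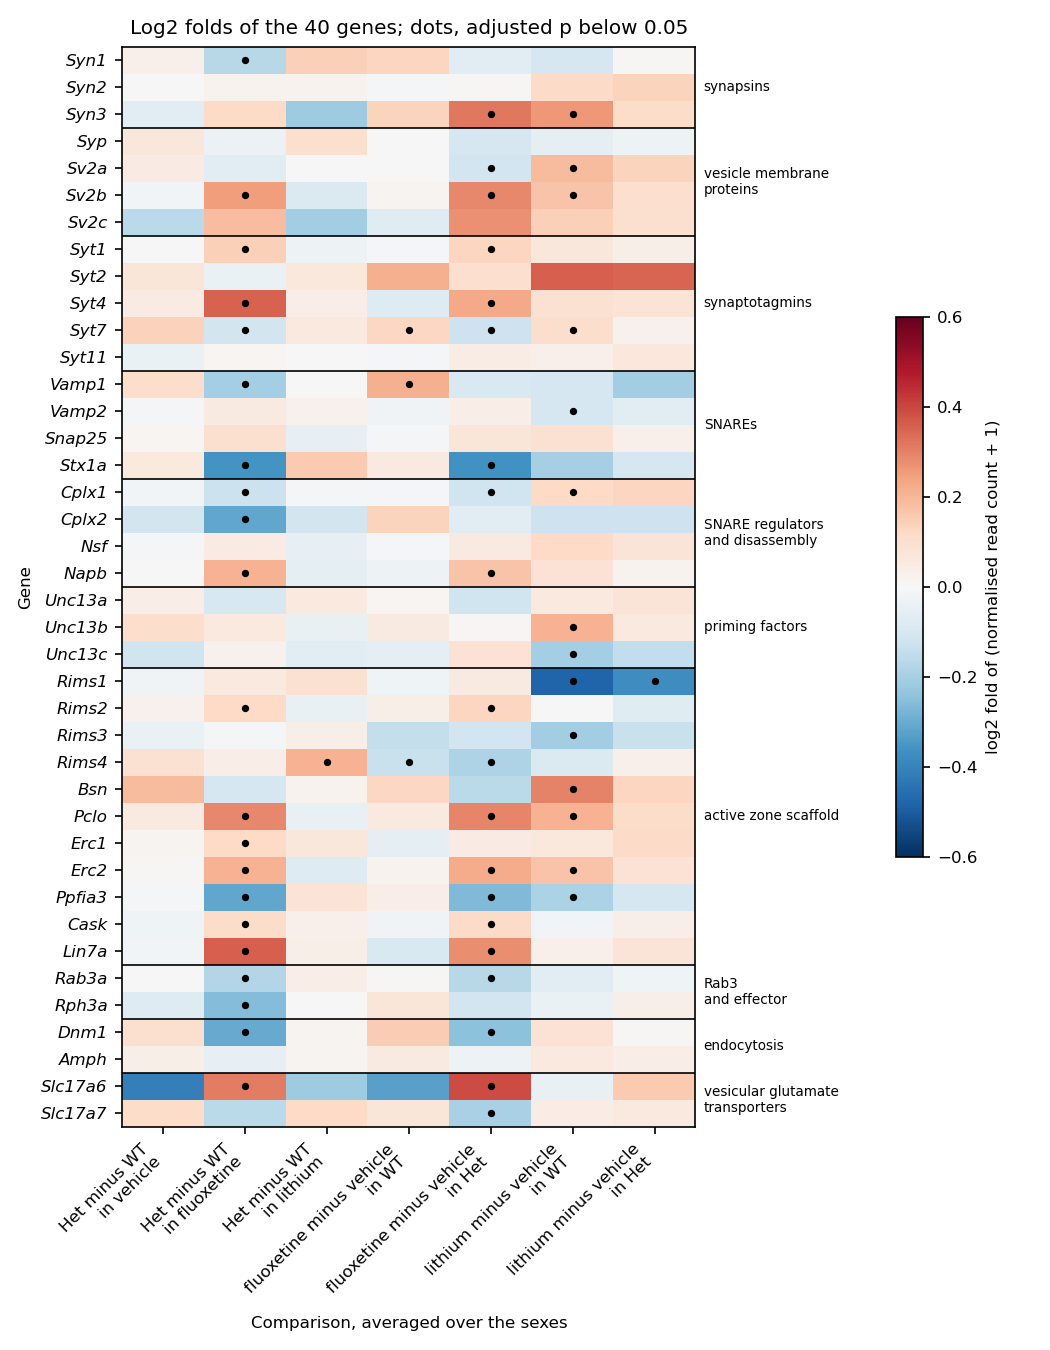
Log2 folds (colour) of the 40 genes (rows, ordered by role) in the 7 comparisons averaged over the sexes (columns); dots mark genes with a limma adjusted p below 0.05. Rims1 has a dot in both lithium against vehicle columns, and the columns in which Het fluoxetine libraries enter hold 20 and 21 dots.

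Under fluoxetine few of the 40 genes changed in WT mice, in a comparison that shares its vehicle libraries with that of lithium: 3 passed, 2 higher and 1 lower (7.5%), beside 8.43% of all genes (4.35% higher, 4.08% lower). Syt7 ran from 11230 to 13961 in vehicle and from 12508 to 15088 in fluoxetine libraries, and rose by 0.13 in log2 units (SE 0.0391, adjusted p = 0.0323). Vamp1, a vesicle SNARE gene, ran from 1988 to 2573 and from 2297 to 2837, and rose by 0.21 (SE 0.0699, adjusted p = 0.0428). Rims4 ran from 3976 to 4914 and from 3730 to 4448, and fell by 0.14 (SE 0.0436, adjusted p = 0.0401). All 10 fluoxetine libraries lay on the called side of the vehicle mean of their sex for Vamp1 and Rims4, and 9 of 10 for Syt7. With 1 library left out Syt7 was called in 12, Vamp1 in 6 and Rims4 in 7 of 20 fits. After the GC correction Syt7 (adjusted p = 0.123) and Vamp1 (adjusted p = 0.0912) were not called. Of the 40 genes 0 were then called higher and 2 lower, 1 of these among the 3, beside 2200 of all genes. With the library term 2 were called higher and 0 lower, both among the 3, beside 1559 of all genes. Rims4 was therefore not called with that term. Without either step 1502 of all genes were called. In the same comparison 3 of 6 endothelial and 0 of 7 microglial markers were called lower, beside 4.08% of all genes. The part of these markers in the results was not tested.

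In Het mice fluoxetine came with changes in 20 of the 40 genes, 11 higher and 9 lower (50%), beside 39% of all genes (19.1% higher, 19.9% lower), and with the library term 0 of the 40 and 0.275% of all genes were called. Lin7a, an adaptor that partners with Cask, ran from 751 to 941 in vehicle and from 878 to 1263 in fluoxetine libraries, a log2 fold of 0.28 (SE 0.0503, adjusted p = 2.15e-05). Slc17a6, the glutamate transporter best known from subcortical neurons, ran from 307 to 708 and from 445 to 796 (0.39, SE 0.119, adjusted p = 0.00769). Stx1a, the plasma membrane SNARE, ran from 9774 to 14712 and from 7191 to 10806 (-0.36, SE 0.0861, adjusted p = 0.00074). All 10 fluoxetine libraries lay above the vehicle mean of their sex for Lin7a and below it for Stx1a, while the ranges of both genes overlapped.

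By role, the scaffold genes Pclo (0.29), Erc2 (0.22), Rims2 (0.13) and Cask (0.11) rose, and Ppfia3 (-0.27) and Rims4 (-0.19) fell. Of the vesicle proteins Syn3 (0.32) and Sv2b (0.29) rose and Sv2a (-0.12) fell. Timp3, which overlaps Syn3 on the opposite strand, was at 0.37 here, so the Syn3 value is uncertain. Of the synaptotagmins Syt4 (0.23) and Syt1 (0.13) rose and Syt7 (-0.12) fell. Napb, a partner of NSF, rose (0.17), and Cplx1 (-0.12), the vesicle GTPase gene Rab3a (-0.17), the endocytic GTPase gene Dnm1 (-0.25) and Slc17a7 (-0.20) fell. No Unc13 gene was called. Of the neuronal markers 2 of 12 were called higher and 4 of 12 lower, beside 19.1% and 19.9% of all genes. Of the endothelial markers 4 of 6 were called lower. Summed excitatory cortical neuron markers had medians of 149714 in Het vehicle and 128321 in Het fluoxetine libraries, with ranges that overlapped. For inhibitory neuron markers the medians were 21480 and 21772. The part of these markers was not tested.

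These folds were ordered by base composition. The 11 genes that rose had transcripts of 40.7% to 48.9% GC, and the 9 that fell 54.2% to 60.9%. Across the 40 genes, which share the same libraries, the fold correlated with GC content at r = -0.80, or -0.37 with the library term. The same correlation was 0.33 for fluoxetine and -0.16 for lithium in WT mice. The deviations of each library from the gene means were also correlated with GC content, over 8394 genes with higher levels. The median r was -0.51 in the 10 libraries of the low pseudogene set (-0.66 to -0.45). In the other 50 libraries it was 0.27 (-0.84 to 0.70). The ordering by GC content is therefore not shown to be particular to the 40 genes. After the GC correction 6 of the 40 genes were called, beside 19.6% of all genes, and all were higher: Syn3 (0.24), Sv2b (0.23), Rims2 (0.11), Pclo (0.22), Erc2 (0.16) and Lin7a (0.18). Stx1a was then at -0.19 (adjusted p = 0.0617). With 9 of the 10 Het fluoxetine libraries in the low pseudogene set, the set and fluoxetine in Het mice are confounded and can hardly be told apart. The loss of calls with the library term therefore cannot decide between them.

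**Figure D4:**
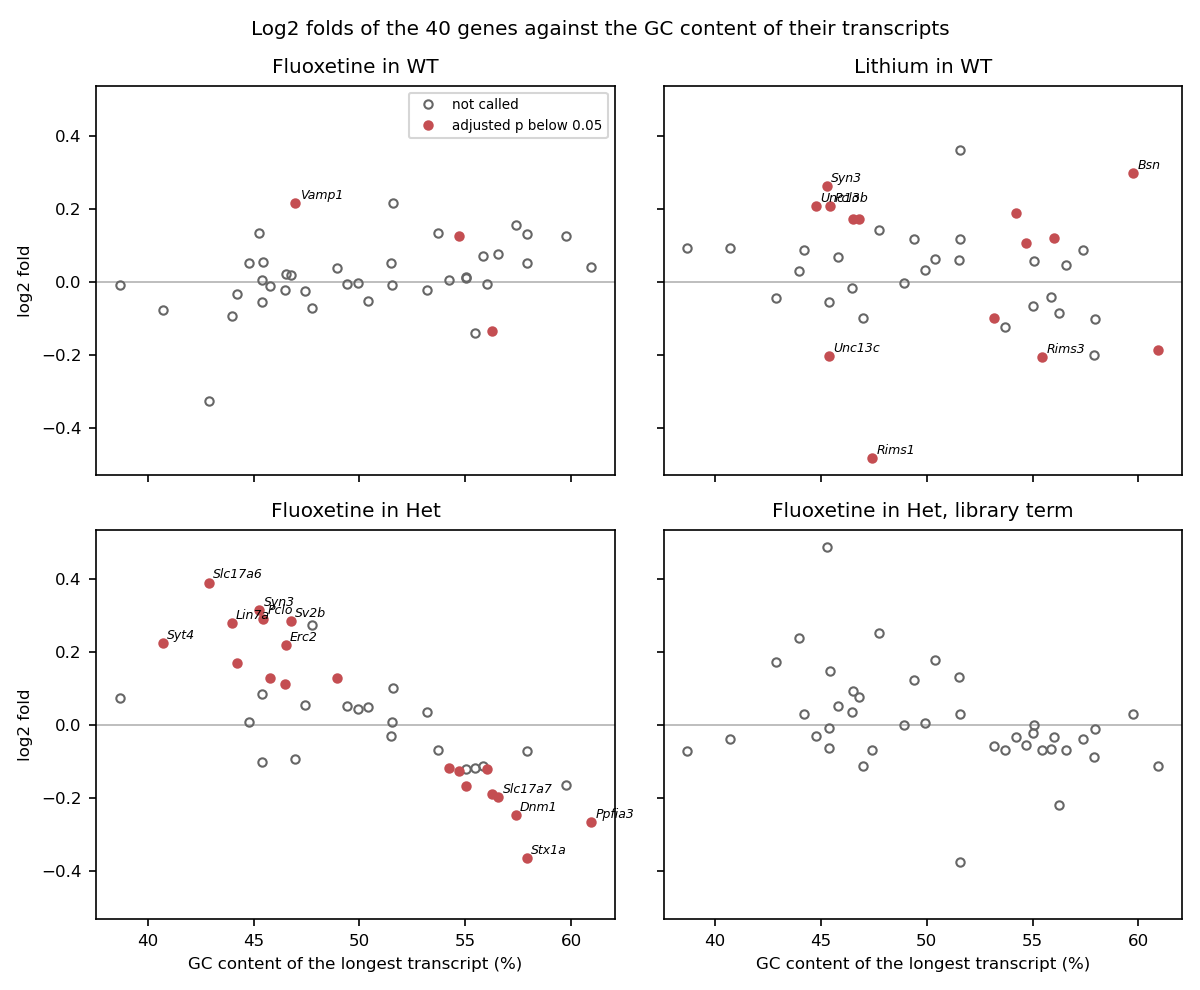
Log2 fold (vertical axis) of each of the 40 genes against the GC content of its transcript in percent (horizontal axis), for fluoxetine in WT, lithium in WT, and fluoxetine in Het mice without and with the library term. In Het mice the folds descend with GC content (r = -0.80), and with the library term r was -0.37.

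Between genotypes under vehicle, none of the 40 genes passed, beside 0.59% of all genes; edgeR also called 0, and 5 had an unadjusted p below 0.05. The smallest adjusted p was that of Syt7, whose Het mean was 13864 ± 928 and whose WT mean was 12594 ± 833 (0.14, interval 0.06 to 0.22, adjusted p = 0.0898). In Het mice 10 of 10 libraries exceeded the mean of WT libraries of the same sex. Slc17a6 spanned 307 to 708 in Het mice and 495 to 785 in WT mice, a log2 fold of -0.41 (interval -0.65 to -0.17, adjusted p = 0.102). Both passed after the GC correction (adjusted p = 0.0459 and 0.0317) and without the 3 libraries with the largest residuals (adjusted p = 0.0178 and 0.00803). For Rims1 the interval of the genotype difference was -0.19 to 0.15, and for Stx1a -0.11 to 0.23.

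Between genotypes under fluoxetine 21 of the 40 passed, 11 higher and 10 lower in Het (52.5%), beside 39.5% of all genes (19.6% higher, 19.9% lower). This comparison shares the Het fluoxetine libraries with that of Het fluoxetine with Het vehicle. Ppfia3 was the only gene of the 40 whose groups did not overlap, with 4557 to 5609 in Het and 5798 to 6844 in WT libraries (-0.31, SE 0.063, adjusted p = 0.000117). The share of all genes without overlap was not computed, so this is not shown to differ from the background. Lin7a had the smallest adjusted p, with 878 to 1263 in Het and 682 to 887 in WT libraries (0.36, SE 0.0503, adjusted p = 1.6e-06). The genes called here and not between Het fluoxetine and Het vehicle were Syn1 (-0.17), Vamp1 (-0.20), the complexin gene Cplx2 (-0.31), Erc1 (0.12) and Rph3a (-0.26), which encodes the Rab3 effector rabphilin. With the library term 0 of the 40 and 0.0393% of all genes were called. After the GC correction 10 of the 40 were, beside 13.1% of all genes, 9 higher and 1 lower, 8 of them among the 21. Lin7a was then at 0.25 (adjusted p = 0.000421) and Ppfia3 at -0.04 (adjusted p = 0.686).

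Between genotypes under lithium 1 gene passed, beside 0.0281% of all genes. Rims4 spanned 4442 to 5264 in Het lithium and 3845 to 4767 in WT lithium libraries, a log2 fold of 0.21 (SE 0.0436, adjusted p = 0.0456). The male ranges did not overlap. The call held in 5 of 20 fits, and was lost after the GC correction (adjusted p = 0.243) and without the 3 libraries with the largest residuals (adjusted p = 0.314).

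The test of whether the fluoxetine response differed by genotype called 14 of the 40 genes, 7 with a higher and 7 with a lower fold in Het than in WT mice (35%), beside 24% of all genes (11.9% higher, 12% lower). The WT and Het folds were -0.33 and 0.39 for Slc17a6, a difference of 0.72 (SE 0.169, adjusted p = 0.00241). They were 0.13 and -0.12 for Syt7 (adjusted p = 0.00151), 0.15 and -0.25 for Dnm1 (adjusted p = 0.00524), and 0.21 and -0.09 for Vamp1 (adjusted p = 0.0194). For Lin7a they were -0.09 and 0.28 (adjusted p = 0.000339). With the library term 0 of the 40 and 0.0449% of all genes were called. After the GC correction 2 of the 40 were, beside 7.46% of all genes: Lin7a (0.28, adjusted p = 0.00841) and Slc17a6 (0.60, adjusted p = 0.0122).

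**Figure D5:**
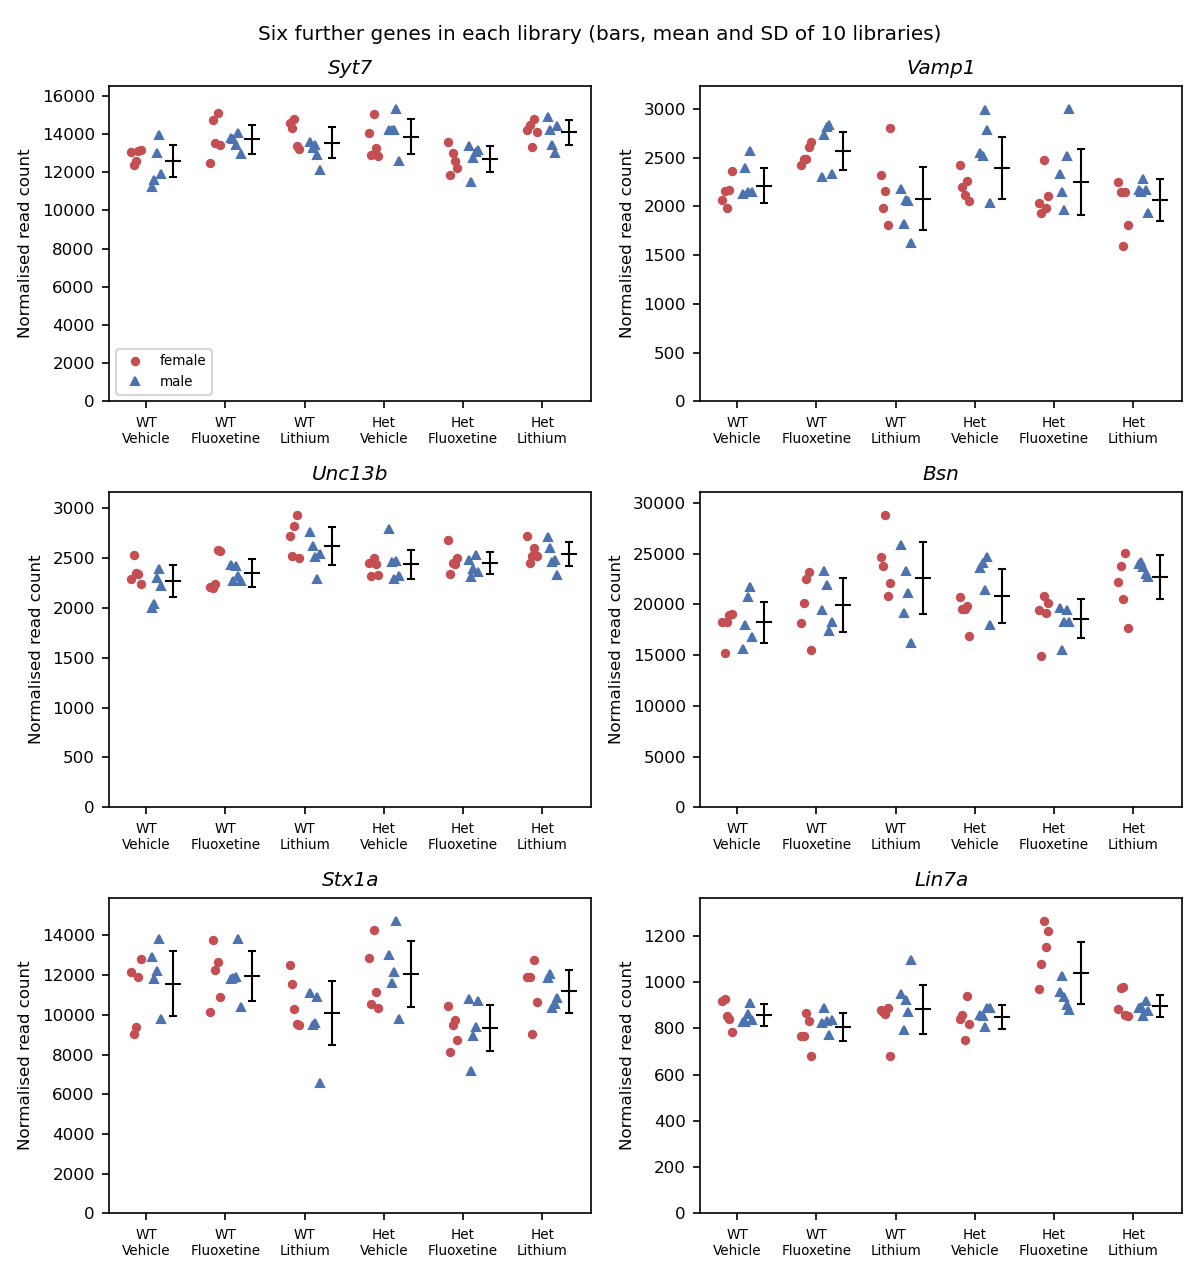
Normalised read count (vertical axis) of 6 genes in each library of the 6 groups (horizontal axis); circles are female, triangles male, and bars the mean and SD of 10 libraries. Unc13b has its highest mean in WT lithium (2621), Stx1a its lowest in Het fluoxetine (9352) and Lin7a its highest in Het fluoxetine (1039).

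Between females and males none of the 40 genes passed over all groups, beside 0.107% of all genes; edgeR called 0, and 1 gene, Syt1, had an unadjusted p below 0.05 (-0.06). Of the 5 tests of a sex difference in a response, that of lithium in WT mice called 1 gene, Cplx1 (0.27, SE 0.0891, adjusted p = 0.0469), beside 9.64% of all genes. Its call held in 8 of 20 fits. The other 4 called 0 of the 40 in limma and in edgeR, beside 0% of all genes in limma. At an unadjusted p below 0.05 there were 8 of the 40 for fluoxetine in Het mice (20%), beside 6.88% of all genes, and 0 in the other 3.

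A further 92 presynaptic genes outside the 40 were counted in the same way. In WT lithium 13 rose and 1 fell, beside 9.34% higher and 9.87% lower of all genes, with a median log2 fold of 0.01. With the library term 14 rose and 7 fell (beside 22.7% of all genes), and after the GC correction 11 and 0 (beside 19.3%). Those that rose included Rab3gap2 (0.19, adjusted p = 2.62e-05), a regulator of the Rab3 cycle, Synj1 (0.19, adjusted p = 0.00159), which acts in vesicle uncoating, the syntaxin-binding gene Stxbp5 (0.20, adjusted p = 0.00244) and the RIM-binding protein gene Rimbp2 (0.19, adjusted p = 0.0202). The gene that fell was Bin1 (-0.12, adjusted p = 0.0218), an amphiphysin relative. In Het lithium 0 rose and 0 fell, beside 0.983% of all genes. Between genotypes none of the 92 passed under vehicle (beside 0.59%) or lithium (beside 0.0281%), while under fluoxetine 32 were higher and 25 lower in Het (beside 19.6% and 19.9%). That became 14 and 2 after the GC correction and 0 and 0 with the library term. In WT fluoxetine 0 rose and 1 fell, beside 8.43% of all genes. In Het fluoxetine 25 rose and 25 fell, beside 19.1% and 19.9% of all genes, which became 12 and 6 after the GC correction and 0 and 0 with the library term. The fluoxetine response differed by genotype for 20 of the 92 upward and 16 downward, beside 11.9% and 12% of all genes, for 8 and 0 after the GC correction, and for 0 and 0 with the library term.

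Of the 40 genes 9 share exon bases with a gene on the opposite strand. The library kit keeps the strand, but the sources used here do not give whether counting used it. Besides Syn3, the longest overlaps were those of Syp with Gm14703 (875 bases), Syt4 with Gm26658 (566) and Unc13a with Colgalt1 (495). Mean levels over all libraries were 24.9, 7.58 and 1748 normalised reads for these partners, and 41838, 5415 and 15666 for the members.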

How the data were processed

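RNA was measured in 60 libraries of mouse prefrontal cortex, in 12 groups of 5 given by the labels (2 genotypes, 3 treatments, 2 sexes). The kit was a stranded one for mRNA, per the labels' protocols. The submitters' processing notes list DESeq2 1.19.11, GRCm38, R 3.6.0 and Salmon 0.11.2 without saying what each did. The deposited table gives a non-negative signal for each gene: within a column the values are whole multiples of 1 step, as read counts that the authors divided by a size factor would be. They are called normalised read counts here. Dividing by the step gave whole reads (within 0.001) for 100% of values in each library, and depth came from these.

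The test was limma 3.58.1 (trend, robust) in R 4.3.3 on log2(value + 1) for the 17810 genes that reached 10 in 5 libraries or more, with 12 group means, 48 residual degrees of freedom and contrasts averaged over the sexes. Calls have a Benjamini-Hochberg adjusted p below 0.05 over all genes in a contrast, and 15 contrasts were taken. Folds on this log2(value + 1) scale understate the change of low genes. The alternatives were trimmed mean of M values factors, no filter, a pseudocount of 5, only the groups compared, the replicate number as a block, edgeR 4.0.16 on the recovered reads, a GC correction (loess span 0.3), a library term, the 3 libraries with the largest residuals left out, and each library left out. For lithium in WT mice limma called 3420 genes and edgeR 3375. All 40 members may be named, and of the other lists the 4 called genes with the smallest p in each direction. The members, lists and alternatives were chosen with earlier results of these data known. The table had 0 columns of other samples.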

Additional observations from a re-analysis of the deposited data

Results flagged for a closer look

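In each group of 5 libraries of one sex, 1 library stood far from the other 4 for a member gene in 32 of 480 gene and group pairs, where chance alone gives about 1 in 20. Values are normalised read counts, each followed by the range of the other 4 libraries (for Slc17a6, by the lowest of them). WT lithium male replicate 5 had Syt4 at 8848 above 5244 to 5717, Napb at 21428 above 16527 to 17680, Erc2 at 7648 above 5719 to 6259, Cask at 4039 above 3129 to 3332 and Rab3a at 11216 below 14178 to 15383. WT vehicle female replicate 2 had Syt2 at 827 above 559 to 600, Syt4 at 6971 above 4544 to 5123, Rims2 at 3651 above 3134 to 3266, Bsn at 15231 below 18251 to 19016 and Erc1 at 2206 below 2488 to 2594. Het vehicle male replicate 4 had Syn2 at 18631 above 15877 to 16492, Rab3a at 18142 above 15296 to 16002 and Amph at 7348 above 6576 to 6791. WT lithium female replicate 5 had Syn2 at 14265 below 17149 to 17676, Erc1 at 1978 below 2459 to 2650 and Lin7a at 679 below 862 to 890. Het fluoxetine female replicate 3 had Rims4 at 4884 above 4241 to 4373 and Cask at 3772 above 3479 to 3556. Het fluoxetine male replicate 2 had Nsf at 20068 below 23080 to 23719 and Slc17a7 at 38828 below 50107 to 53222. Het vehicle male replicate 5 had Syt2 at 480 below 754 to 858 and Cplx2 at 22015 below 30207 to 31019. WT vehicle female replicate 3 had Sv2c at 1802 above 1147 to 1240 and Rims1 at 7783 below 9661 to 10358.

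Het fluoxetine female replicate 2 had Bsn at 14921 below 19157 to 20838. Het lithium female replicate 4 had Cask at 2978 below 3287 to 3382. Het vehicle female replicate 2 had Syt4 at 5810 above 5069 to 5211. Het vehicle female replicate 3 had Slc17a6 at 307 below 495. Het vehicle female replicate 5 had Rph3a at 14155 below 15720 to 16300. WT fluoxetine male replicate 2 had Nsf at 25142 above 22679 to 23287. WT fluoxetine male replicate 4 had Sv2c at 1026 below 1206 to 1275. WT lithium female replicate 4 had Rab3a at 13971 below 15855 to 16508.

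The fluoxetine response differed between Het and WT mice (the Het minus the WT log2 fold, limma adjusted p below 0.05) for Bsn (-0.29), Dnm1 (-0.40), Erc2 (0.20), Lin7a (0.37), Napb (0.20), Pclo (0.24), Ppfia3 (-0.31), Slc17a6 (0.72), Slc17a7 (-0.27), Stx1a (-0.42), Sv2b (0.27), Syt4 (0.30), Syt7 (-0.25) and Vamp1 (-0.31). All 14 differences use the Het fluoxetine libraries, most of which were in the low pseudogene set, and also the WT fluoxetine and both vehicle groups. With the library term 0 were called. The lithium response of Cplx1 in WT mice differed by sex, by 0.27 (females minus males).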

How the results depend on the processing

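Counts of called members that moved by more than 1.5 times were as follows. With the library term, 0 were called between genotypes under fluoxetine, 0 for fluoxetine in Het mice, 0 for its difference by genotype and 0 for the sex difference in the lithium response of WT mice. After the GC correction these counts were 10, 6, 2 and 0, with 2 between genotypes under vehicle and 0 under lithium. Without the 3 libraries with the largest residuals the counts were 2 between genotypes under vehicle, 0 under lithium, 9 for lithium in WT, 2 for lithium in Het mice and 0 for the sex difference. With only the compared groups fitted they were 0 between genotypes under lithium, 5 for lithium in WT mice and 0 for the sex difference. That sex difference gave 2 with trimmed mean factors, 2 with edgeR and 2 with the replicate block. Counts over all genes are not set beside the members' counts for the other alternatives or the fits with 1 library left out. Those shifts are therefore not shown to be particular to the members. The causes were not tested.

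With each library left out in turn, the counts ran from 0 to 2 between genotypes under vehicle, 18 to 22 under fluoxetine and 0 to 1 under lithium. They ran from 0 to 3 for fluoxetine in WT, 17 to 22 in Het, 8 to 15 for lithium in WT and 0 to 1 in Het mice, 10 to 15 for the fluoxetine difference by genotype and 0 to 9 for the sex difference.

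Between genotypes under fluoxetine the GC correction turned Syn1 to 0.0501, Syt7 to 0.0398 and Cplx1 to 0.0484, and the library term turned Rims2 to -0.0084. For fluoxetine in Het mice they turned Cplx1 to 0.016 and Syt4 to -0.0372. No filter and a pseudocount of 5 changed the call of none of 600 folds.

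Replicate numbers showed no general pairing of the samples: over 330 same-number pairs the median correlation of deviations was 0.000406. It was 0.000802 for pairs with different numbers. The same-number pairs ran from -0.337 to 0.375, with 16.4% above 0.1, so a median cannot exclude pairing between some groups. With the replicate block 12 members were called for lithium in WT, 1 in Het, 2 for fluoxetine in WT, 21 in Het, 22 between genotypes under fluoxetine, 1 under lithium and 14 for the fluoxetine difference by genotype.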
